A study of Mus musculus with 3 samples.

Results

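The 35 genes described here encode enzymes that write or remove methyl and acetyl groups on DNA and proteins of chromatin: DNA methyltransferases, histone deacetylases, sirtuins, histone lysine methyltransferases, histone acetyltransferases and protein arginine methyltransferases. They were chosen by name and not by a rule on measured values, though with earlier results of these data known. The genes were Dnmt1, Dnmt3a and Dnmt3b, Hdac1 to Hdac11, Sirt1 to Sirt7, Ezh1, Ezh2, Suv39h1, Ehmt1, Ehmt2, Setdb1, Ep300, Crebbp, Prmt1, Prmt2, Prmt3, Prmt5, Prmt6 and Prmt7. All 35 were among the 27597 named genes on the array, with 61 of its 41174 probes. In the peritoneal macrophages studied, 32 of the 35 were measured in every group, and none of them differed 2-fold or 1.5-fold at either dose of hexavalent chromium. Over all measured genes, 2.71% differed 2-fold and 9.38% 1.5-fold at the higher dose, and 1.42% and 4.89% at the lower. At 2-fold a count of 0 is near the background, and at 1.5-fold it was not tested against it.

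Gene expression was measured with 3 Agilent mouse arrays in 1 colour, 1 array per group. The groups were mice given the 70 nmol dose of hexavalent chromium with TPA, mice given the 35 nmol dose with TPA, and controls given TPA alone. All were male Swiss albino mice aged 8 weeks, randomised into groups of 10. All 3 groups, controls included, had received 125 µg of lipopolysaccharide into the peritoneum on day 0 and 100 ng of the phorbol ester TPA, a tumour promoter, on day 4, together with chromium where it was given. Cells labelled as macrophages were washed out of the peritoneum 4 days after that. The protocol gives the doses as potassium dichromate, a hexavalent chromium salt, and the sample labels as Cr(VI). They do not settle which is meant, and dichromate holds 2 chromium atoms, so the dose of chromium itself could be 2 times the number given. The labels do not settle whether an array held RNA of 1 animal or of a pool, and no array came from mice without lipopolysaccharide and TPA. Lipoic acid, named in the title, was given to none of the groups measured.

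DNA methyltransferases add methyl groups to cytosines, mostly where a guanine follows, and methylated promoters are generally silent. Histone deacetylases and the NAD-dependent sirtuins take acetyl groups off histones and other proteins, and acetyltransferases put them on. Lysine and arginine methyltransferases mark histones in ways that, depending on the residue, go with repressed or with active genes. In macrophages these enzymes are known to set which inflammatory genes can respond to stimuli such as lipopolysaccharide, and hexavalent chromium compounds are known in other systems to alter both DNA methylation and histone marks.

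With 1 array per group there was no test between groups, no p-value and no spread over animals. A level is the log2 signal relative to the 75th percentile of its array, and a difference is one level minus another on the log2 scale. Levels of different genes come from different probes and are not comparable with each other. The only errors to hand were technical. The scanner software's own error of a difference had a median of 0.21 on the log2 scale over all genes. Among all genes with more than 1 measured probe, the probes of a gene spanned a median of 0.19 in the comparison of 70 nmol with TPA alone. Both dose comparisons use the same TPA array, so a high or low value on it shows in both. All 3 arrays were on 1 slide, and position on the slide and group cannot be told apart.

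The check of the cell label came from marker lists. Of 8 general macrophage markers, 7 were measured, with median differences of 0.04 at 70 nmol and -0.02 at 35 nmol and a range at 70 nmol of -0.51 (Adgre1) to 0.76 (Fcgr1). The 8 measured markers of large resident peritoneal macrophages had a median difference of -1.13 at 70 nmol, with 6 of them at least 2-fold lower (1.08% of all measured genes were), and -0.25 at 35 nmol. The 5 measured fibroblast markers had medians of 1.51 at 70 nmol and 0.12 at 35 nmol, and the 7 measured mast cell markers -1.42 and -0.82. Medians at 70 and 35 nmol were 0.55 and 0.01 for monocytes (6 markers), -0.34 and -0.11 for B cells (8 markers), and 0.65 and 1.45 for eosinophils (4 markers). T and NK cell markers had medians of 0.04 over 6 measured genes and -0.05 over 7, and the 2 measured mesothelial markers 0.83 and 0.09. Of 8 hepatocyte markers, 7 were at least 2-fold higher at 35 nmol than with TPA alone (1.12% of all measured genes were), and all but Alb were not well above background at 70 nmol. Alb differed from TPA alone by -6.09 at 70 nmol and 1.56 at 35 nmol. Erythroid markers had medians of -1.07 and -2.47 over 4 measured genes. Neutrophil markers had medians of 0.46 and 0.11 over 5 measured genes, which went opposite ways, from Cxcr2 (-1.39 and -2.07) to Retnlg (1.03 and 1.98). Not well above background on any array were Ngp, Ltf and Camp of neutrophils and Prg2 and Epx of eosinophils. In these bulk samples fewer cells of a type and less RNA per cell cannot be told apart, and the part of cell makeup in the enzymes' values was not tested.

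Promoters of the enzymes were read from RefSeq (GRCm38.p6), each from 250 bases before to 50 bases after a gene's start. Of the 35 genes, 32 had 1 or more entries, 44 in all, and Hdac1, Hdac3 and Hdac10 had none. At least 1 promoter was CpG-rich (at least 50% G and C, with CG pairs at 0.6 or more of the number the base composition gives) in 29 of the 32, or 90.6%. The share was 68.9% of the 10075 genes in the table that were well above background on some array, and 36% of all 27025 genes in it. An E2F motif, the element of genes that are active when cells divide, was searched as TTTCCCGC, TTTCGCGC, TTTGCCGC or TTTGGCGC on both strands. These forms differ from each other at 1 or 2 positions and can overlap on opposite strands. The motif was found in at least 1 promoter of 4 of the 32 genes (12.5%), against 4.44% of the expressed genes and 2.6% of all genes. With only 1 promoter taken per gene it was found in 2 of the 32 (6.25%), against 3.93% and 2.32%. A match is a description of the letters and not a binding site.

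The 4 promoters with a match belong to a DNA methyltransferase, 2 histone methyltransferases and a sirtuin. They are shown because they let the motif be set against these genes' values below. Capitals mark the matches, and each sequence runs 5′ to 3′ on the gene's strand.
Dnmt1 (chr9:20952574-20952873, minus strand): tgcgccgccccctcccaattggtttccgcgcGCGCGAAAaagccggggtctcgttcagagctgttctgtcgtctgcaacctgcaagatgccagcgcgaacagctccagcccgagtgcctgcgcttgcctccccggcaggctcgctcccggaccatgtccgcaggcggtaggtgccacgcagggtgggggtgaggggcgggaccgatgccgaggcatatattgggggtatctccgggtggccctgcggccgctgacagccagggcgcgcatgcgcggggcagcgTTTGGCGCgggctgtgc
Ezh2 (chr6:47594981-47595280, minus strand): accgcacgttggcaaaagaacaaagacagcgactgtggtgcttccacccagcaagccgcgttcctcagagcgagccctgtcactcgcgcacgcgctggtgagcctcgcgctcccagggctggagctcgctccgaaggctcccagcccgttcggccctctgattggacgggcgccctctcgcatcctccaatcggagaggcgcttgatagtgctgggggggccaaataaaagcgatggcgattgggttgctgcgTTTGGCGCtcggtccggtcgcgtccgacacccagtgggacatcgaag
Suv39h1 (chrX:8074312-8074611, minus strand): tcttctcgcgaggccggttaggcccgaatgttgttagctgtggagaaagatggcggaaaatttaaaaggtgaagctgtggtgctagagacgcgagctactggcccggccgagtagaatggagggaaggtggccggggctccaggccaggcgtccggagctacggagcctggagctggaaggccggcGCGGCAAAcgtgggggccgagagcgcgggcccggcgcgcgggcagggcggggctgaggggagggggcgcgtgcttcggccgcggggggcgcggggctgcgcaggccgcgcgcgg
Sirt4 (chr5:115484248-115484547, minus strand): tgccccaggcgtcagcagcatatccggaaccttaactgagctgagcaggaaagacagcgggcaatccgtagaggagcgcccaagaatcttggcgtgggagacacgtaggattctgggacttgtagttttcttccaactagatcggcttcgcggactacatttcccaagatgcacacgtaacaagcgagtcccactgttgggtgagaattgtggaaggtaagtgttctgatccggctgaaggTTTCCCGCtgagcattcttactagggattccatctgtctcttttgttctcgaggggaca

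The 3 members without any CpG-rich promoter were Hdac8, Hdac9 and Sirt5. Their promoters are shown beside that of Sirt1 because these 4 genes lie toward the ends of the range of differences at 70 nmol, described below. Capitals mark every CG pair, of which there were 6 for Hdac8, 0 for the Hdac9 promoter shown, 15 for Sirt5 and 47 for Sirt1. A further Hdac9 promoter, not shown, held 3. Dnmt3b, which lies at the low end of the range as well, has a CpG-rich promoter with 30 CG pairs, also not shown.
Hdac8 (chrX:102505109-102505408, minus strand): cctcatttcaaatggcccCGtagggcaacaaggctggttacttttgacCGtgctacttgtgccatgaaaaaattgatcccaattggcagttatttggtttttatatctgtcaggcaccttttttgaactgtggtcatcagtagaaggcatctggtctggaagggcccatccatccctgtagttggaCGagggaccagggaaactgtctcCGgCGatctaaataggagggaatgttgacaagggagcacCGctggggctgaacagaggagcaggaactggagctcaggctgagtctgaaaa
Hdac9 (chr12:34917046-34917345, minus strand): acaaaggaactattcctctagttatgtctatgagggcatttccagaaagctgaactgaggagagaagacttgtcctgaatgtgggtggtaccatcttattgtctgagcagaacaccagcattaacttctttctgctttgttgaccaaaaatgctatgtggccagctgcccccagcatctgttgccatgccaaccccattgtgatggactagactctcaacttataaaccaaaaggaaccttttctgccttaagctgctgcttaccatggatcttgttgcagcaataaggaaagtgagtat
Sirt5 (chr13:43365285-43365584, plus strand): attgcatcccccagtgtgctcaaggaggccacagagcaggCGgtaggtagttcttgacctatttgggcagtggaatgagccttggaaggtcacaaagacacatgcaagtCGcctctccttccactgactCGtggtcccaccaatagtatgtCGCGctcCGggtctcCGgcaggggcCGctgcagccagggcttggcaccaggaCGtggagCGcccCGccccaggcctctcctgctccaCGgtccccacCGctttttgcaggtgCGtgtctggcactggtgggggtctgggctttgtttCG
Sirt1 (chr10:63338986-63339285, minus strand): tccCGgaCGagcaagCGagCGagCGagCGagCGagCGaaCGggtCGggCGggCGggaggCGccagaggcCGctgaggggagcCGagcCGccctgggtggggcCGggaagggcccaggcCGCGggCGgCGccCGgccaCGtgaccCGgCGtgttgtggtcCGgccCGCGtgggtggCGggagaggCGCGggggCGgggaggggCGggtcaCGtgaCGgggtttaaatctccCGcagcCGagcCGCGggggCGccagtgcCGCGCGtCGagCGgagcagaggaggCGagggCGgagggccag

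Across the 32 measured enzymes the differences were small in every comparison. Between 70 nmol and TPA alone, 0 of 32 differed at least 2-fold, where 2.71% of 12541 measured genes did. Between 35 nmol and TPA alone it was 0 of 32, where 1.42% of 12730 genes did. Between 70 and 35 nmol it was 0 of 32 again, where 1.64% of 12387 genes did. A share of 2.71% of 32 genes is less than 1 gene, so a count of 0 is near the background and says little about the enzymes as a group. At 1.5-fold the counts were 0 of 32 in all 3 comparisons as well, beside 9.38%, 4.89% and 6.51% of all measured genes, in the same order. Differences within 0.25 of 0 were seen for 21 of 32 enzymes at 70 nmol against TPA alone (64.7% of all genes), and for 27 of 32 at 35 nmol (75.3% of all genes). Between 70 and 35 nmol they were seen for 25 of 32 (70.9% of all genes).

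The median difference of the enzymes was -0.01 at 70 nmol and 0.01 at 35 nmol, against medians of 0.04 and 0.04 over all measured genes. Their SD across genes was 0.23 at 70 nmol and 0.19 at 35 nmol, where all genes had SDs of 0.38 and 0.30. Of the 32, 12 had values below 0 at both doses, 11 above 0 at both, and 9 on opposite sides, with the TPA array common to both. Between 70 and 35 nmol the median was -0.05, with 9 enzymes above 0 and 23 below, where the median of all genes was 0.00. The widest differences at 70 nmol were those of Hdac8 (-0.51), Dnmt3b (-0.50), Hdac9 (-0.47) and Sirt1 (0.38). Those at 35 nmol were Dnmt3b (-0.42), Prmt3 (-0.35), Setdb1 (-0.34) and Suv39h1 (0.33). More than 2 scanner errors separated 2 enzymes, Hdac8 and Hdac9, from their level with TPA alone at 70 nmol, both lower, where 6.2% of all genes were lower and 15.1% differed in either direction by that measure. No enzyme passed it at 35 nmol against TPA alone or at 70 against 35 nmol, where 7.45% and 10.6% of all genes did.

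**Figure D1:**
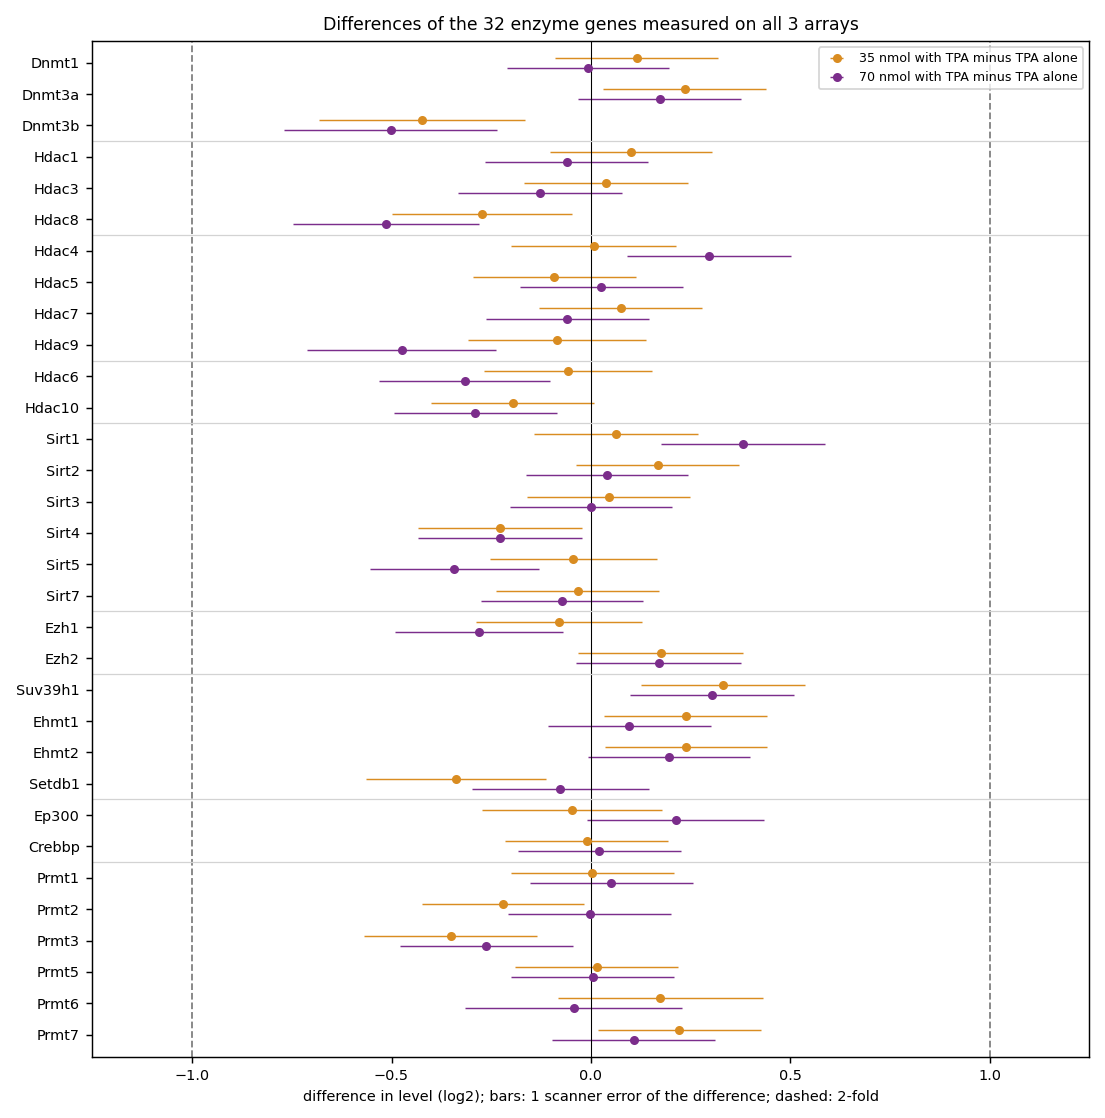
Differences in log2 level of the 32 measured enzymes at 35 nmol (orange) and 70 nmol (purple) with TPA, each minus TPA alone. Points are single differences between 2 arrays, bars are 1 scanner error of the difference, dashed lines mark 2-fold and grey lines separate enzyme classes. All points lie between -0.51 and 0.38, inside the 2-fold lines.

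**Figure D2:**
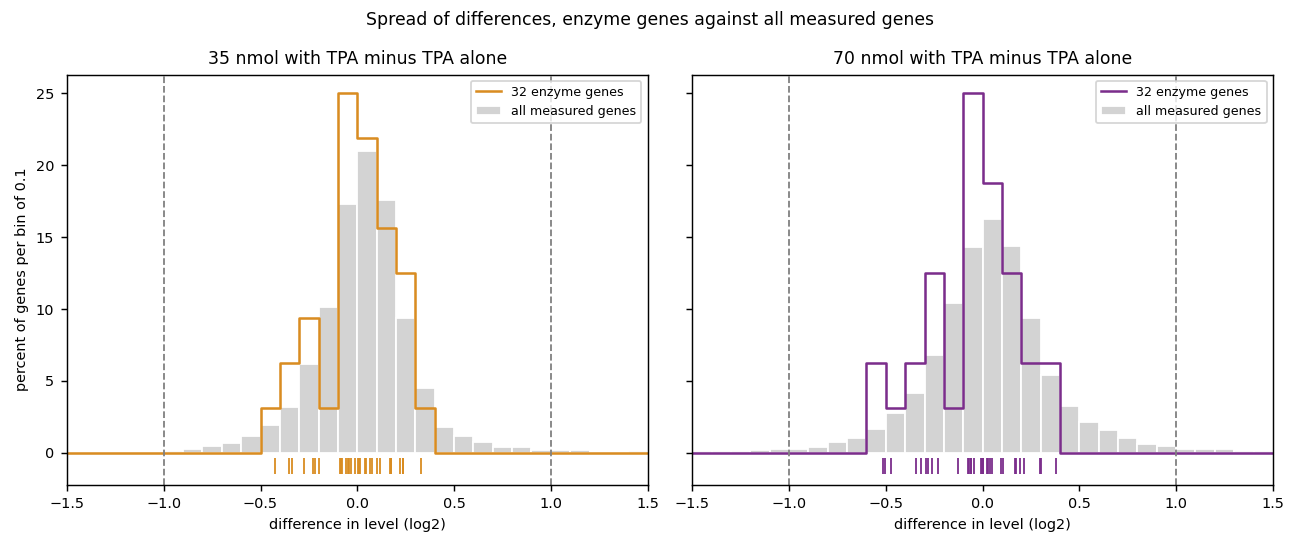
Percent of genes in bins of 0.1 of log2 difference, for all measured genes (grey bars) and the 32 enzymes (line), with ticks for the single enzymes, at 35 nmol (left) and 70 nmol (right) minus TPA alone. The enzymes had medians of 0.01 at 35 nmol and -0.01 at 70 nmol. Single enzymes reached into the lower tail of all genes, with 4.3% of genes below Dnmt3b at 35 nmol and 4.98% below Hdac8 at 70 nmol.

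Among the DNA methyltransferases, Dnmt1, which copies methylation onto new strands after replication, had levels of 2.49 with TPA alone, 2.61 at 35 nmol and 2.48 at 70 nmol. The 3 levels lay closer together than 1 scanner error. Dnmt3a, which places methyl groups on unmethylated DNA, had levels of 1.37, 1.60 and 1.54 in that dose order. Its differences from TPA alone were 0.17 at 70 nmol and 0.24 at 35 nmol, and its 2 other probes gave 0.04 and 0.10 at 70 nmol. All 3 Dnmt3a probes were above 0 at both doses, though spike-in scaling put the gene at -0.19 and -0.18. Dnmt3b, the other de novo enzyme, best known from embryonic cells, had levels of -1.80 with TPA alone, -2.23 at 35 nmol and -2.30 at 70 nmol. Its single probe gave differences of -0.50 at 70 nmol, or 1.42-fold lower, and -0.42 at 35 nmol, with scanner errors of 0.27 and 0.26. Both chromium arrays were below the TPA array by less than 2 scanner errors. Dnmt3b lies at chr2:153649411-153687730 (GRCm38.p6), and the probe at chr2:153378788-153378847 in the files' build, mm8.

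Class I deacetylases are mainly nuclear enzymes, and Hdac1, Hdac2 and Hdac3 act in large corepressor complexes. Hdac1 had levels of 3.27 with TPA alone, 3.37 at 35 nmol and 3.21 at 70 nmol, and Hdac3, the catalytic subunit of a nuclear receptor corepressor complex, 1.05, 1.09 and 0.92. Both genes were within 1 scanner error of TPA alone at both doses. Hdac8, which takes acetyl groups off the cohesin subunit Smc3, had levels of -1.18 with TPA alone, -1.45 at 35 nmol and -1.69 at 70 nmol. The differences from TPA alone were -0.51 at 70 nmol (scanner error 0.23, 1.43-fold lower) and -0.27 at 35 nmol (0.23). The levels were in the order of dose, as were those of other enzymes, among them Dnmt3b, Hdac6, Hdac9 and Sirt1. The Hdac8 difference between 70 and 35 nmol was -0.24, equal to its scanner error. Only the brighter of 2 Hdac8 probes was well above background on all arrays. The other gave -0.05 at 35 nmol (scanner error 0.38) and was not well above background at 70 nmol, where its level was -3.25, against -3.14 with TPA alone. The brighter probe spans chrX:98510450-98605349 in mm8, 94900 bases where most probes cover 60. The gene lies at chrX:102284638-102505381 in GRCm38.p6, a build whose coordinates cannot be set against those of mm8. Hdac2, the close relative of Hdac1, was not well above background with either of its 2 probes on any array.

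Class IIa deacetylases shuttle between nucleus and cytoplasm and bind MEF2 transcription factors. Hdac4 had levels of 0.21 with TPA alone, 0.22 at 35 nmol and 0.50 at 70 nmol, and its difference at 70 nmol was 0.30 (scanner error 0.21). Hdac5 levels were 2.80, 2.71 and 2.83 in the same order, and those of Hdac7 1.64, 1.72 and 1.58. The 2 Hdac7 probes gave -0.06 and -0.35 at 70 nmol. Hdac9 had levels of -1.32 with TPA alone, -1.40 at 35 nmol and -1.79 at 70 nmol. At 70 nmol its brightest probe differed by -0.47 from TPA alone (scanner error 0.24) and by -0.39 from 35 nmol (0.24). A second Hdac9 probe, also well above background on all arrays, gave -0.03 and -0.10 for the same comparisons. These 2 probes lie 17691 bases apart in mm8. Another had levels of -2.83 with TPA alone, -2.93 at 35 nmol and -3.35 at 70 nmol, where it was not well above background, and the last was well above background on no array. Of the 2 probes measured at 70 nmol, both were below TPA alone, but only 1 by more than 2 scanner errors. That probe passed narrowly, at -0.4748 with a scanner error of 0.2372. Hdac9 lies at chr12:34047580-34917095 (GRCm38.p6).

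The class IIb enzymes had levels below TPA alone at both doses. Hdac6, a cytoplasmic tubulin deacetylase, differed by -0.32 at 70 nmol (scanner error 0.21) and -0.06 at 35 nmol. Its levels were -0.43 with TPA alone, -0.49 at 35 nmol and -0.75 at 70 nmol. Hdac10, known as a polyamine deacetylase, differed by -0.29 at 70 nmol (scanner error 0.20) and -0.20 at 35 nmol, and its second probe by -0.18 and -0.02. Hdac11, the sole class IV enzyme, was well above background only with TPA alone, at -3.37, near the lowest such level on that array (-3.65). Its levels at 35 nmol (-4.07) and 70 nmol (-4.15) were not well above background, and the lowest level that was so stood at -3.40 and -3.26 on those arrays, so no fold is given. Of the 11 zinc-dependent deacetylases of classes I, II and IV, 9 were measured. Their median difference was -0.13 at 70 nmol and -0.06 at 35 nmol, with 7 of 9 below 0 at 70 nmol and 5 of 9 at 35 nmol. All genes had medians of 0.04 in both. Spike-in scaling, another way to set the arrays level, moved the median of all genes to -0.32 at 70 nmol and -0.38 at 35 nmol and put all 9 deacetylases below 0. Relative to the median of all genes, the enzymes' values are the same under both scalings.

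The sirtuins showed no common direction. Sirt1, a nuclear deacetylase of histones, p53 and the p65 subunit of NF-kB, had levels of 0.58 with TPA alone, 0.64 at 35 nmol and 0.96 at 70 nmol. The difference at 70 nmol, 0.38 (scanner error 0.21, 1.30-fold), was the highest of all 32 enzymes, and that from 35 nmol was 0.32. Its second probe gave 0.16 and 0.14 for these. Sirt1 lies at chr10:63319005-63339035 (GRCm38.p6). Sirt2, mainly cytoplasmic, had levels of 2.78, 2.94 and 2.82 in dose order from TPA alone, and Sirt7, a nucleolar enzyme, 4.51, 4.48 and 4.44. Mitochondrial members differed among themselves. Sirt3, the main mitochondrial deacetylase, had levels of 2.61, 2.65 and 2.61. Sirt4 differed from TPA alone by -0.23 at 70 nmol and by -0.23 at 35 nmol, just over its scanner error of 0.21. Sirt5, a desuccinylase, differed by -0.34 at 70 nmol (scanner error 0.21) and -0.04 at 35 nmol, with levels of -0.28 with TPA alone, -0.33 at 35 nmol and -0.63 at 70 nmol. Sirt6, with 1 probe, was not well above background on any array.

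Ezh2 and Ezh1, the alternative catalytic subunits of the polycomb repressive complex that methylates lysine 27 of histone H3, lay on opposite sides of 0. Each had 1 probe, and spike-in scaling put both below 0 at both doses, with Ezh2 at -0.19 at 70 nmol and -0.24 at 35 nmol. Ezh2, the form of dividing cells, had levels of 0.07 with TPA alone, 0.25 at 35 nmol and 0.24 at 70 nmol. Ezh1, common in resting cells, had levels of -0.13, -0.21 and -0.42. Its difference from TPA alone at 70 nmol was -0.28 (scanner error 0.21), and that of Ezh2 was 0.17 (0.21).

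Of the 4 enzymes here that methylate lysine 9 of histone H3, a repressive mark, 3 lay above TPA alone at both doses and 1 below. Those above were Suv39h1, Ehmt1 and Ehmt2, and the one below was Setdb1. Spike-in scaling put all 4 below TPA alone, and normexp correction gave Ehmt1 -0.02 and Setdb1 0.07 at 70 nmol. Suv39h1, which acts in pericentromeric heterochromatin, had levels of 0.55 with TPA alone, 0.88 at 35 nmol and 0.85 at 70 nmol. The differences were 0.30 at 70 nmol and 0.33 at 35 nmol, each with a scanner error of 0.21 and from a single probe. Ehmt1 and Ehmt2, also called GLP and G9a, form a dimer that places the mono- and dimethyl marks. Ehmt1 differed by 0.10 at 70 nmol and 0.24 at 35 nmol, and Ehmt2 by 0.20 and 0.24. None of these 6 differences reached 2 scanner errors. Setdb1, which silences retroviral repeats, had levels of -1.02 with TPA alone, -1.36 at 35 nmol and -1.10 at 70 nmol. Its differences were -0.08 at 70 nmol and -0.34 at 35 nmol (scanner error 0.23), so the 35 nmol array stood below the others.

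The acetyltransferases Ep300 and Crebbp, paralogous coactivators, differed by 0.21 and 0.02 at 70 nmol, and by -0.05 and -0.01 at 35 nmol. Crebbp is uncertain, because its 3 probes, all well above background, disagreed. At 70 nmol they gave 0.02, 0.35 and -0.58, and at 70 against 35 nmol 0.03, 0.28 and -0.90. The probe at -0.58 had levels of -2.59 with TPA alone, -2.27 at 35 nmol and -3.17 at 70 nmol and scanner errors up to 0.37. Of the 4 probes of Ep300, 1 was well above background.

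Protein arginine methyltransferases centred on 0. Prmt1, which makes most asymmetric dimethylarginine in cells, had levels of 2.39 with TPA alone, 2.40 at 35 nmol and 2.45 at 70 nmol. Prmt5, the main symmetric enzyme, had 2.45, 2.46 and 2.45. These were among the closest sets of levels in the list. Prmt2 had levels of 4.30, 4.08 and 4.30, with the 35 nmol array lower by just over 1 scanner error, and Prmt7, which places single methyl groups, 3.16, 3.38 and 3.27. The 2 Prmt7 probes gave 0.11 and -0.10 at 70 nmol. Prmt6 levels were -2.20, -2.02 and -2.24 in the same order, with a scanner error of 0.27 for its difference of -0.04 at 70 nmol. Prmt3, which methylates a protein of the small ribosomal subunit, had levels of -0.63 with TPA alone, -0.98 at 35 nmol and -0.89 at 70 nmol. All 4 Prmt3 probes were below 0 at both doses, between -0.68 and -0.13 at 70 nmol and between -0.36 and -0.12 at 35 nmol. Its brightest probe gave -0.26 at 70 nmol and -0.35 at 35 nmol, each with a scanner error of 0.22. Prmt3 lies at chr7:49778319-49861264 (GRCm38.p6).

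**Figure D3:**
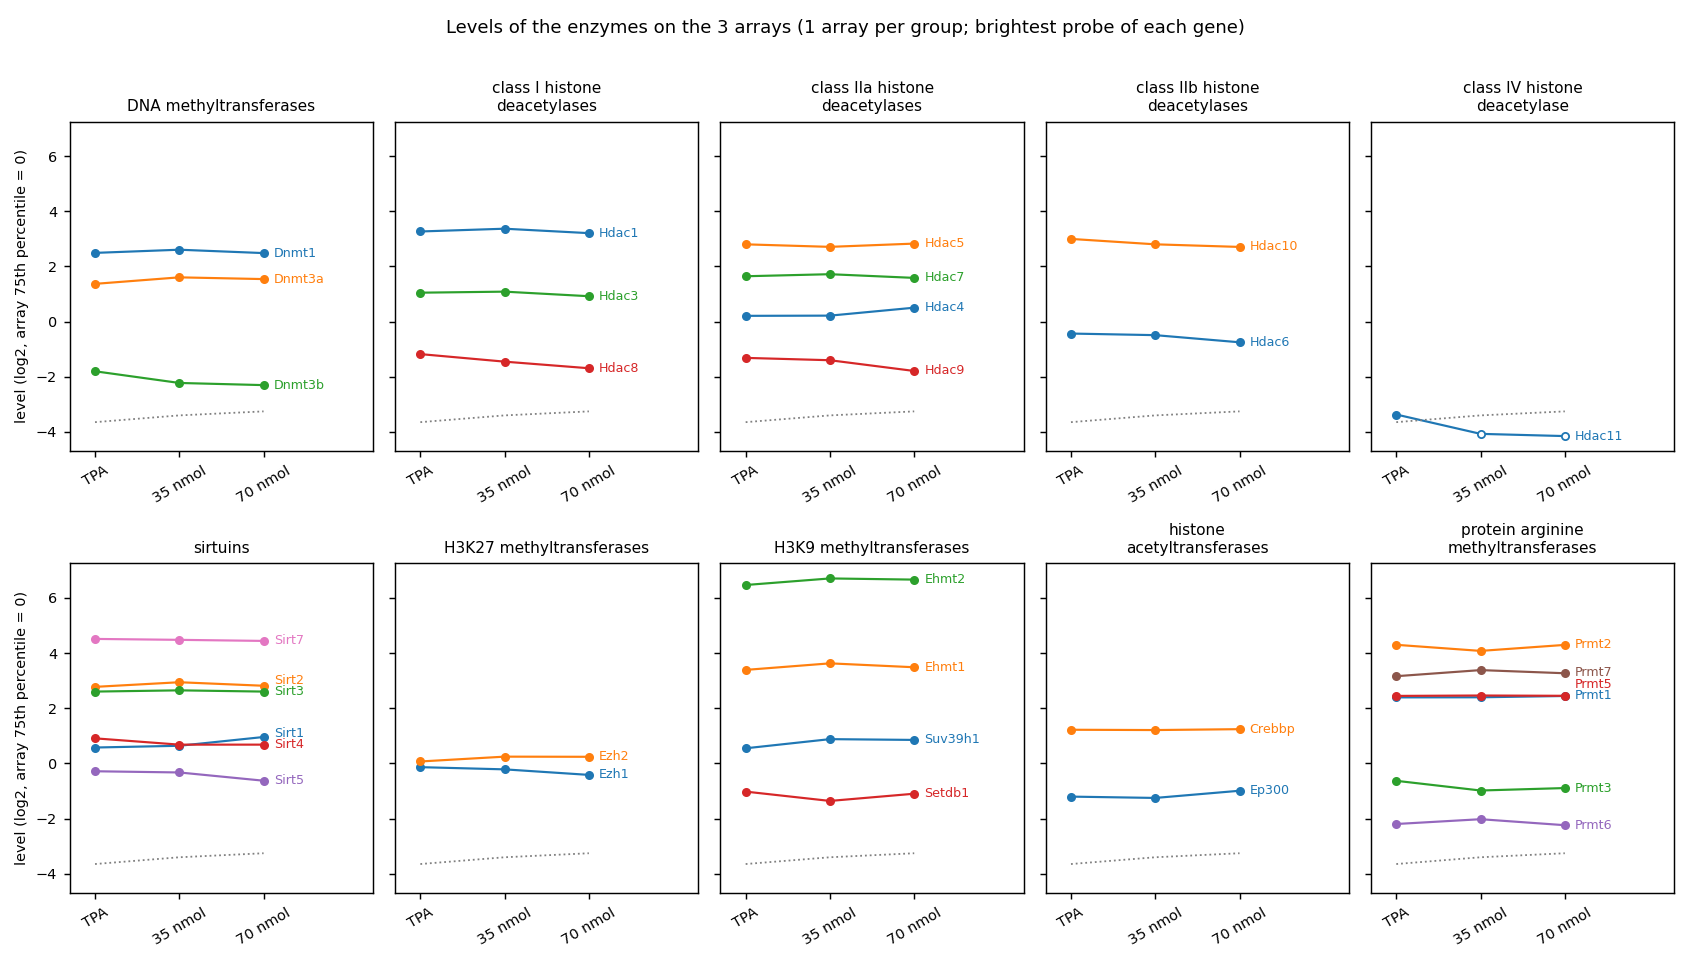
Levels of the enzymes by class on the 3 arrays, in dose order, on a log2 scale on which the 75th percentile of each array is 0. Filled points were well above background, open points were not, and dotted lines mark the lowest level well above background on each array. Lines are nearly flat, and heights are not comparable between genes. Hdac2 and Sirt6 are not drawn.

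**Figure D4:**
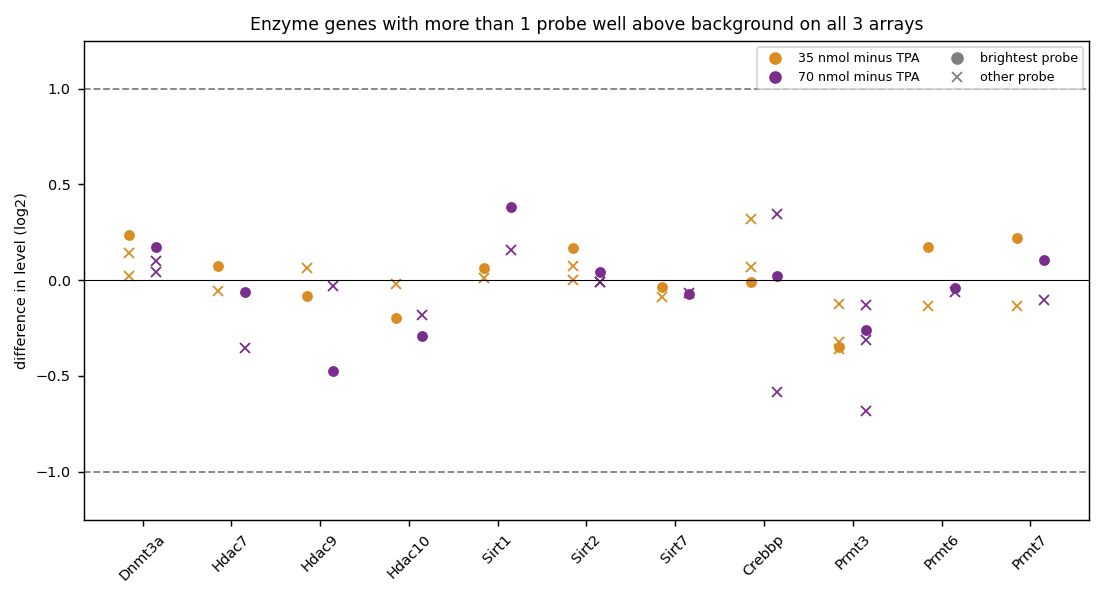
Log2 differences from TPA alone for each probe of the 11 enzymes with more than 1 probe well above background on all arrays, at 35 nmol (orange) and 70 nmol (purple). Circles are the brightest probe, crosses the other probes. Prmt3 probes all lie below 0 and Dnmt3a probes all above 0, while Crebbp probes at 70 nmol lie between -0.58 and 0.35.

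Agreement between probes of the same enzyme was set beside that of other genes. Over the 11 enzymes with more than 1 measured probe at 70 nmol, the median range between probes was 0.21, where 4122 genes had 0.19. All probes of an enzyme were on the same side of 0 for 8 of 11 enzymes at 70 nmol and 6 of 12 at 35 nmol, where 61.5% and 55.7% of genes were so. Between 70 and 35 nmol it was 5 of 11 enzymes, where 62.7% of genes were so, and the median ranges were 0.17 for the enzymes and 0.16 for all genes.

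The 3 lowest differences at 70 nmol came from dim probes, while Sirt1, Suv39h1 and Prmt3 were brighter. Of the 32 enzymes, 5 had a level between -2 and -1 with TPA alone: Dnmt3b, Hdac8, Hdac9, Setdb1 and Ep300. In that range of level, 25.2% of 1403 genes were past 2 scanner errors at 70 nmol and the SD over genes was 0.50. Among the 4454 genes with levels of 2 or more, 11.4% were past 2 errors and the SD was 0.29. The 13 enzymes with levels that high differed by -0.29 to 0.20 at 70 nmol. Background correction by normexp, which moves dim probes most, gave Dnmt3b -0.14 at 70 nmol and -0.07 at 35 nmol, Hdac8 -0.22 and Hdac9 -0.18 at 70 nmol, and Setdb1 -0.04 at 35 nmol.

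Values were next set beside the promoter letters shown above. Of the 4 genes with an E2F motif, Dnmt1, Ezh2 and Suv39h1 had differences of 0.11, 0.18 and 0.33 at 35 nmol, and Sirt4 -0.23. Over the measured genes that had a promoter entry, the median at 35 nmol was 0.06 for the 427 with the motif and 0.05 for the 8702 without it. At 70 nmol the 4 genes had -0.01 (Dnmt1), 0.17 (Ezh2), 0.30 (Suv39h1) and -0.23 (Sirt4), and the medians were 0.04 with and 0.04 without the motif. The 3 enzymes with no CpG-rich promoter, a grouping made after their values were seen, had differences of -0.51 (Hdac8), -0.47 (Hdac9) and -0.34 (Sirt5) at 70 nmol, and of -0.27, -0.09 and -0.04 at 35 nmol. The 26 measured enzymes with a CpG-rich promoter had a median of 0.01 at both doses. They ranged from -0.50 (Dnmt3b) to 0.38 at 70 nmol and from -0.42 (Dnmt3b) to 0.33 at 35 nmol, so low values were not confined to the other 3. Over the measured genes that had a promoter entry, the medians at 70 nmol were nearly the same. They were 0.03 for the 2472 without and 0.04 for the 6509 with a CpG-rich promoter, but the SDs were 0.51 and 0.31.

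Partners of these enzymes were described through 8 lists with 115 other genes, of which 107 were measured at 70 nmol and 108 at 35 nmol, none at least 2-fold different at either dose, where 2.71% and 1.42% of all genes were. The median was 0.06 at both doses. More than 2 scanner errors above TPA alone were 3 genes at 70 nmol, where 8.94% of all genes were, and 3 at 35 nmol, where 4.37% were, and none was below it by that much, where 6.2% and 3.08% of all genes were. By list, the medians lay between 0.00 and 0.13 at 70 nmol and between -0.04 and 0.13 at 35 nmol.

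In the DNA methylation list, 13 of 14 genes were measured. Tdg, a glycosylase that removes the oxidised methylcytosines made by Tet enzymes, differed by 0.49 at 70 nmol (scanner error 0.21) and 0.29 at 35 nmol. Dnmt3l, a cofactor of the de novo enzymes without catalytic activity, differed by 0.48 and 0.56, with scanner errors of 0.44 and 0.42 at a level near background. In the polycomb list, 13 of 13 were measured, with a median of 0.00 at 70 nmol and 0.13 at 35 nmol. Jarid2, which helps recruit the complex that holds Ezh2, had levels of 2.42 with TPA alone, 2.77 at 35 nmol and 3.16 at 70 nmol. Its difference at 70 nmol, 0.73 (scanner error 0.20), was the highest of the 107 genes and in the order of dose. Cbx8, a reader of the mark made by Ezh2, differed by 0.15 at 70 nmol and 0.39 at 35 nmol.

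All 17 corepressor subunits were measured. Tbl1xr1, an exchange factor of a complex that holds Hdac3, differed by -0.37 at 70 nmol (scanner error 0.21) and -0.05 at 35 nmol on its brightest probe. Its direction is uncertain, because its 3 measured probes ran from -0.37 to 0.38 at 70 nmol and from -0.05 to 0.27 at 35 nmol. Of the lysine methyltransferases outside the 35, 19 of 22 were measured, with Smyd2 at 0.36 and 0.46 and Kmt5b, which methylates lysine 20 of histone H4, at -0.44 and -0.16. Of the lysine demethylases, 20 of 21 were measured, with Kdm2a at 0.36 and 0.34 and Kdm5b at -0.35 and -0.29. The 10 other acetyltransferases ranged from -0.23 (Kat5) to 0.24 (Ncoa1) at 70 nmol. Of the other arginine methyltransferases, 3 of 4 were measured, with Prmt9 at 0.19 and -0.04 and Ndufaf7 at -0.19 and -0.16, for 70 and 35 nmol.

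The methyl donor and NAD supply list had the widest values at 35 nmol. Gnmt, a liver enzyme that uses up S-adenosylmethionine, had levels of -0.71 with TPA alone, -0.02 at 35 nmol and -0.79 at 70 nmol. Its difference was 0.69 at 35 nmol (scanner error 0.21) and -0.08 at 70 nmol. Mat1a, the liver form of the enzyme that makes S-adenosylmethionine, was not measured at 70 nmol, so the rule for named genes leaves it out. It is named because its difference of 0.86 at 35 nmol was the highest of the 108. The hepatocyte markers, with a median of 1.56 at 35 nmol, were also higher at that dose, and their part was not tested.

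Cell division genes were set beside Dnmt1, Ezh2 and Suv39h1, which dividing cells express. At 35 nmol all 20 of 20 lay above 0, and above the median of all genes, with a median of 0.22, a range of 0.04 to 0.53, and 3 higher by more than 2 scanner errors, where 4.37% of all genes were. At 70 nmol the median was 0.04, with 12 of 20 above 0. Between 70 and 35 nmol it was -0.24, with 18 of 20 below 0. Ccnb1, a mitotic cyclin, differed by 0.28 at 70 nmol and 0.45 at 35 nmol, and Cenpe, a kinetochore motor, by 0.24 and 0.53. Dnmt1, Ezh2 and Suv39h1 differed between 70 and 35 nmol by -0.12, -0.01 and -0.03. The part of cell division in their values was not tested. Spike-in scaling, with the shift of all genes given above, put these 3 genes below TPA alone at both doses. It shifts all genes by the same amount, so the side of 0 of the cell division genes also depends on the scaling. Their place above the median of all genes at 35 nmol does not.

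**Figure D5:**
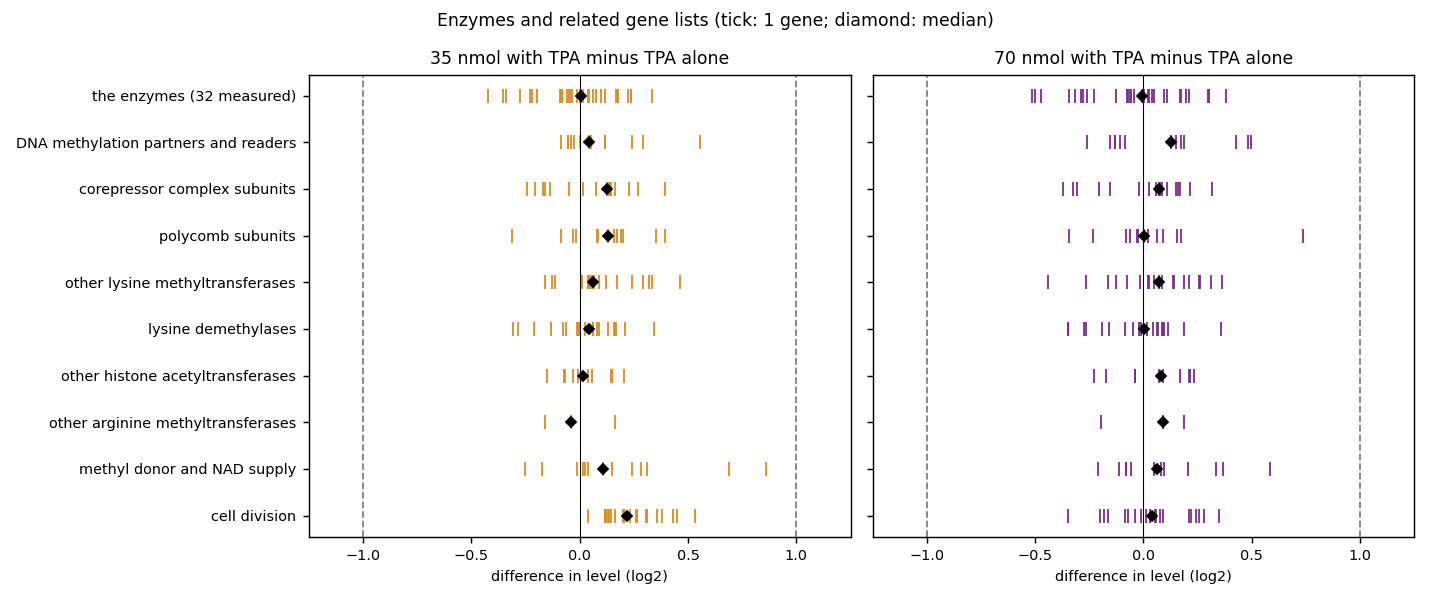
Log2 differences from TPA alone at 35 nmol (left) and 70 nmol (right) for the measured enzymes, the 8 partner lists and the cell division list. Ticks are genes, diamonds list medians, and dashed lines mark 2-fold. No gene reaches 2-fold, and all 20 cell division genes lie above 0, and above the median of all genes (0.04), at 35 nmol.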

How the data were processed

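Total RNA of peritoneal cells, labelled with Cy3, was measured on 3 arrays of 1 slide, 1 for each group. Spot intensity values were extracted by the authors, per the file headers, with Agilent Feature Extraction 10.5.1.1, which subtracts background, and probe positions belong to mouse build mm8. The deposited series table holds log2 values. Each of its columns equalled log2 of the processed signal minus 1 constant (7.67 at 70 nmol, 7.61 at 35 nmol and 8.00 for TPA alone) within 0.01 for 99.8% or more of well-detected probes. The medians of its columns were -3.78, -3.74 and -3.60, and it was not centred by gene.

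From the scanner files, log2 of the processed signal minus the 75th percentile of the array was computed over 43379 non-control spots, which gave 41174 probes after spots flagged as outliers were dropped and repeated spots averaged. Probes were named through RefSeq (24375 by accession, 6301 by symbol and 2426 by synonym, with 8072 under the file's own name). Of the 61 probes of the enzymes, 47 were named by accession and 14 by symbol. Well above background was the scanner software's own flag, set at a multiple of 13 in the headers. It held for 18564 probes (45.1%) at 70 nmol, 18907 (45.9%) at 35 nmol and 20200 (49.1%) with TPA alone. The number of arrays, not depth, limits the precision. A gene's value is that of its brightest probe well above background on some array. It was measured in a comparison if that probe was well above background and not saturated on both arrays. A difference of at least 2-fold was called.

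Alternatives were normexp background correction (offset 50) and quantile normalization in limma 3.58.1 (R 4.3.3), scaling on detected probes or on 4 of 10 spike-in probes, looser and stricter filters, the mean over probes, the deposited table and 1.5-fold. The measure of 2 scanner errors was added after the data were seen. Other steps used Python 3.11.15, numpy 2.4.6, pandas 2.3.3 and matplotlib 3.10.9, tested on simulated data. Named genes were all 35 enzymes and, from each partner and cell division list, the genes with the largest difference at either dose among those measured on all arrays (at most 2), plus any at least 2-fold different. Mat1a was named outside this rule. Of the genes this rule names, 2 are not reported here. The enzymes and lists were chosen with earlier results of these data known.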

Additional observations from a re-analysis of the deposited data

How the results depend on the processing

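No enzyme differed 2-fold under any of the alternatives tried, which left between 20 and 35 enzymes measured while the share of all genes at least 2-fold different ran from 0.306% to 7.92%. The measure of 2 scanner errors, added after the data were seen, gave a count of 2 at 70 nmol (Hdac8 and Hdac9), where 15.1% of all genes passed it. It gave 0 at 35 nmol and at 70 against 35 nmol, where 7.45% and 10.6% passed. Hdac9 passed it narrowly, and its second probe, at -0.03, did not. Spike-in scaling moved the enzymes' median to -0.37 at 70 nmol and -0.41 at 35 nmol, together with the median of all genes (-0.32 and -0.38), since it subtracts another constant from every probe. Under it 31 of 32 enzymes at 70 nmol and 32 of 32 at 35 nmol lay below 0, with Sirt1 at 0.02 at 70 nmol. Relative to all genes the enzymes' medians stayed at -0.04 and -0.03. Of 734 values of single enzymes recomputed under alternatives, changed thresholds left out, 664 moved by less than the scanner error of the difference. The other 70 were 64 under spike-in scaling, 5 under normexp and 1, Crebbp at 70 against 35 nmol (-0.20), with the mean over probes. No paired analysis was possible because each group had 1 array, and no array could be left out for the same reason. Dim probes limit the values of Dnmt3b, Hdac8 and Hdac9, and Hdac2, Sirt6 and Hdac11 could not be compared.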
